A study of Rattus norvegicus with 64 samples.

Results

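The rat entorhinal cortex was sampled as total RNA from its medial (MEC) and lateral (LEC) divisions, and the genes described here are the microRNA precursor genes (pre-mirs) for which those libraries held usable counts. Of 456 annotated pre-mirs, 157 were selected on their own counts, by a sum of at least 100 over all 64 libraries. The choice therefore rests on abundance summed over all ages, layers and regions. A sparse pre-mir can pass through the groups in which it is high, such as Mir219-2 with 139 counts and 28 libraries at 0 or Mir3546 with 138 and 24. Each region also has 18 libraries of P2 and P9 against 14 of P23 and P45, so the limit is not neutral to age. Just inside that limit lay Mir128-1 with 101 counts and Mir336 and Mir19a with 103 each, and just outside it lay Mir18a with 98, Mir191 with 97 and Mir2964 with 94.

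The animals were Long Evans rats of postnatal day (P) 2, 9, 23 or 45, with no treatment or transgene named. In each region layer II (LII) and the remaining layers III to VI together (LDeep) were dissected from both hemispheres. Each combination of region and layer had 5, 4, 3 and 4 libraries from the youngest to the oldest age, so that 32 libraries were from MEC and 32 from LEC. The libraries of a given age and replicate number share that number across layers and regions, but the labels do not say whether they come from the same rat. The study ties LII and LDeep of a number to the same animal for its MEC miRNA expression samples; for these libraries it is not stated in the sources used here. P-values measure the spread between libraries.

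A microRNA (miRNA) is cut out of a long primary transcript stepwise: Drosha with its partner Dgcr8 releases the hairpin precursor in the nucleus, and Dicer cuts the hairpin in the cytoplasm. The mature strand is loaded into an Argonaute protein and pairs with mRNAs mainly through its seed, the stretch from base 2 to base 8. Many miRNAs are made from the introns of protein-coding genes or in clusters from a shared transcript, and in brain families such as mir-9, mir-124 and let-7 accompany the passage from progenitors to neurons. The values here come from long-RNA libraries. They are read pairs that touch the hairpin's interval, so they report primary transcripts, host introns or host exons, and not the mature miRNAs.

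The mature strands of the pre-mirs on which the results below turn are shown for orientation, from RefSeq (GRCr8), 5′ to 3′, with the seed in capitals. RefSeq held mature strands for 137 of the 157 pre-mirs. The first set rose with age:
rno-miR-132-3p: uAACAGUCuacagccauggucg
rno-miR-212-3p: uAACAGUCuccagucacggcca
rno-miR-22-3p: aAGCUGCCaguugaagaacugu
rno-miR-29a-3p: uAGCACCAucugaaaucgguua
rno-miR-219a-5p: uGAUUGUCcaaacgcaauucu
The neighbours Mir132 and Mir212 share a seed, AACAGUC. The next set fell with age:
rno-miR-149-5p: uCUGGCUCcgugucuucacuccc
rno-miR-9a-5p: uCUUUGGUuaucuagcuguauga
rno-miR-9a-3p: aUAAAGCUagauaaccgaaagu
rno-miR-137-3p: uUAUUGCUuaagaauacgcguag
rno-let-7d-5p: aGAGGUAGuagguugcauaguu
Both mir-9a strands are encoded by Mir9-1, Mir9-2 and Mir9-3, on 2 chromosomes. Among the strands that RefSeq gave, the let-7 seed GAGGUAG was shared by 8 pre-mirs, without Mirlet7c-1, Mirlet7c-2 and Mirlet7f-1. The last set comes from the imprinted locus on chromosome 6, where several strands share a seed, AGGUCAC across 2 clusters (Mir1193 and Mir370) and GGUUGUC within 1 cluster (Mir410, Mir494 and Mir496):
rno-miR-1193-3p: uAGGUCACccguuuuacuaucc
rno-miR-370-5p: cAGGUCACgucucugcaguuacac
rno-miR-410-5p: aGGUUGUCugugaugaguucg
rno-miR-494-5p: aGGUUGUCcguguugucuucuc
rno-miR-496-5p: aGGUUGUCcaugguguguuc
In the strands that RefSeq gave, 16 seeds were shared by 2 or more of the pre-mirs. Strands that it lacked are not counted, so shared seeds can be missed.

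The counts of the 157 pre-mirs were few and unevenly spread. They summed to 165106 over the 64 libraries, or 1044 to 4209 per library, and the median pre-mir had 364 in all. A library held 3894334 to 11439143 counts, so that a single count was worth 0.0874 to 0.257 CPM, the count scaled to the library total. Only 62 pre-mirs had a count in every library, 103 had a median under 1 CPM, and 34 were at 0 in more than 10 libraries. For 15 of them a whole group of 3 to 5 libraries was at 0. No SE is given for those in a region that holds such a group. Their differences there are quoted from an added fit in which age and layer act additively, with its own adjusted p.

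Position in the rn6 annotation decided what was counted. Of the pre-mirs, 21 overlapped an exon of another gene on the same strand and held 61.4% of the counts, 28 lay in an intron and held 5.42%, and 108 lay outside annotated genes and held 33.2%. In the GRCr8 annotation some of the 108 lie in genes, such as Mir770 in Meg3, Mir6315 in Vps51, Mir3547 in Baiap3 and Mir143 in Carmn. They were not set beside those genes. Because read pairs were counted for every gene they touched, an exonic pre-mir shares its reads with its host mRNA. The most abundant pre-mirs were of that kind. Mir3064 in the RNA helicase gene Ddx5 had a median of 62.6 CPM, Mir2985 in the AMPA receptor gene Gria2 had 42.4 CPM and Mir6321 in Rufy3 had 33.4 CPM. The most abundant outside annotated genes were Mir770 (7.31 CPM), Mir6315 (6.65 CPM) and Mir22 (5.94 CPM). Scaled to the length of the interval, Mir3064 stood at 934 CPM per kb and Mir22 at 62.5 CPM per kb.

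The tissue labels were checked on lists of marker genes. Neuronal markers summed to at least 908 CPM in every MEC library and 964 in every LEC library, and oligodendrocyte markers rose from a median of 130 CPM (MEC) and 144 CPM (LEC) at P2 and P9 to 5877 and 2084 CPM at P23 and P45. The LII markers Reln, Calb1 and Wfs1 summed to 707 to 1992 CPM in MEC LII and 146 to 808 CPM in MEC LDeep. Libraries that stood apart were both MEC libraries of P2 replicate 1. The library labelled LII had the lowest LII sum of its layer (707 CPM), 14.1 CPM of meningeal and 197 CPM of ependymal markers, while the library labelled LDeep had 797 CPM of LII and 458 CPM of meningeal markers against 38.9 to 77.3 CPM in the other MEC LDeep libraries of P2. In LEC, LDeep of P45 replicate 4 had 1378 CPM of LII markers against 571 to 834 CPM in the other LDeep libraries of that age. The layer calls over all ages that rest on them are given without them below.

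The question of the age comparison was which pre-mirs differ between the younger (P2 and P9) and the older (P23 and P45) cortex. In MEC 73 of the 157 pre-mirs were down-regulated at the older ages and 13 were up-regulated (edgeR's quasi-likelihood test, Benjamini-Hochberg adjusted p under 0.05 over 13078 genes). Among all genes tested, 36.5% were higher at the younger ages and 35.5% at the older ages. The median log2 fold change (LFC) was -0.66 over the pre-mirs and -0.02 over all genes. In LEC 64 pre-mirs were down-regulated and 13 up-regulated, beside 37.9% and 35.1% of all genes, and the median LFC was -0.56. By position, 12 exonic, 11 intronic and 50 outside pre-mirs fell in MEC, and 14, 12 and 38 fell in LEC. Fewer cells of a type and less RNA per cell cannot be told apart in these tissue samples.

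**Figure D1:**
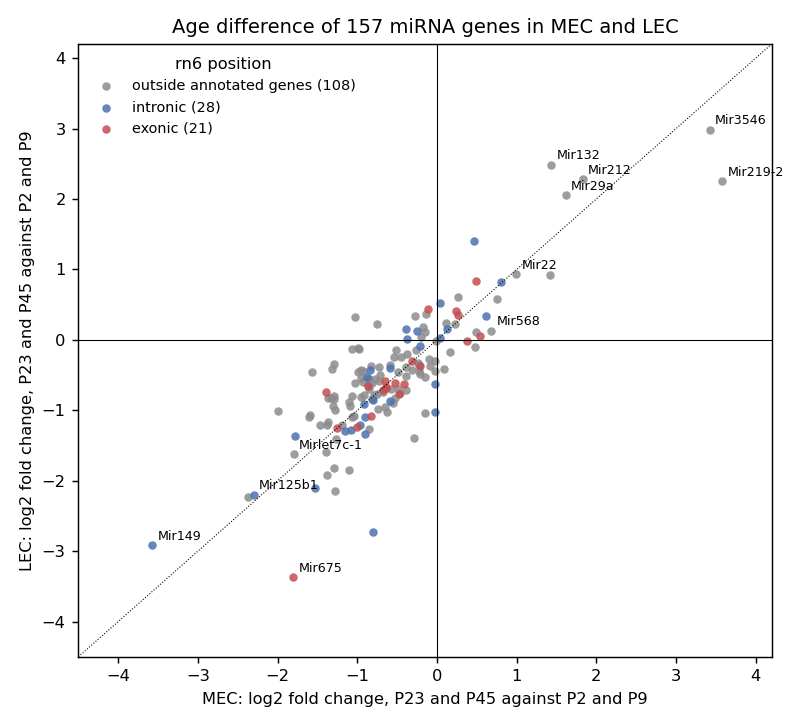
LFC of the 157 pre-mirs between P23 and P45 and P2 and P9, in MEC (x axis) and LEC (y axis), colored by position in the rn6 annotation; the dotted line marks equal values, and pre-mirs with a group at 0, such as Mir219-2, Mir3546 and Mir675, are plotted by the fit with a mean for each group. Of the points, 130 lie left of 0 in MEC and 123 lie below 0 in LEC.

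Individual libraries overlapped between the age groups for nearly every pre-mir. Only Mir149 and Mir6321 had all 18 younger MEC libraries above all 14 older ones, whereas 6.69% of all genes did. In LEC no pre-mir did, beside 6.79% of genes. No pre-mir had every older library above every younger one in MEC or LEC, beside 6.52% and 6.27% of genes.

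Mir149 had the lowest LFC of the pre-mirs in MEC. It ranged from 0.809 to 7.06 CPM (median 2.24) in the younger MEC libraries and from 0 to 0.518 CPM (median 0.137) in the older ones, an LFC of -3.57 (SE 0.31, adjusted p = 3.11e-11, edgeR). In LEC its medians were 2.6 and 0.324 CPM, with an LFC of -2.91 (SE 0.36, adjusted p = 1.25e-08, edgeR). The drop was spread over both early intervals. In MEC the LFC was -1.17 from P2 to P9 and -2.85 from P9 to P23, and in LEC it was -0.88 and -2.88, all past the threshold.

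The mir-9 genes, whose product represses targets in neural progenitors, fell as a family. Mir9-1, Mir9-2 and Mir9-3 were all down-regulated in MEC, and Mir9-1 and Mir9-2 were in LEC. Mir9-2 had 1.68 to 8.72 CPM (median 3.63) in younger and 0.872 to 2.4 CPM (median 1.31) in older MEC libraries, an LFC of -1.38 (SE 0.16). Its LFC in LEC was -1.21 (SE 0.18). From the youngest to the oldest age its medians in MEC were 5.09, 2.47, 1.37 and 1.31 CPM, and the libraries of P2 lay above all those of P9. Mir9-3 in LEC had an LFC of -0.69 (adjusted p = 0.0756, edgeR).

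Of the mir-124 genes, whose miRNA is abundant in neurons, all 3 were down-regulated in MEC and Mir124-2 and Mir124-3 in LEC. Mir124-2 had medians of 2.33 CPM in younger and 0.833 CPM in older MEC libraries, with an LFC of -1.60 (SE 0.27) in MEC and -1.06 (SE 0.22) in LEC. Mir124-1 had an LFC of -0.83 in MEC (adjusted p = 0.00455, edgeR) and of -0.37 in LEC, where it was not past the threshold (adjusted p = 0.185, edgeR). Mir137, a regulator of neuronal maturation, fell from a median of 1.43 to 0.322 CPM in MEC and from 1.29 to 0.499 CPM in LEC. Its LFC was -1.47 (SE 0.35) and -1.21 (SE 0.33).

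Among the 11 let-7 and mir-98 pre-mirs, whose mature forms promote differentiation, 5 were down-regulated in each region, 4 of them in both, and none was up-regulated. Each count is 45.5% of the 11, beside 36.5% of all genes in MEC and 37.9% in LEC. The 4 in both were Mirlet7c-1, Mirlet7c-2, Mirlet7d and Mirlet7g. Mirlet7c-1 had an LFC of -1.80 (SE 0.32) in MEC and -1.63 (SE 0.34) in LEC. Its neighbour on chromosome 11, Mir99a, fell beside it, with -1.40 (SE 0.31) and -1.59 (SE 0.30). Mirlet7b and Mir98 were not past the threshold in MEC or LEC. Mir7a-1 and Mir7a-2 fell in both regions, and Mir7b, with an LFC of 0.12 in MEC and 0.24 in LEC, did not pass the threshold. Neither mir-128 gene, neither mir-138 gene and none of the cluster Mir23b, Mir27b and Mir24-1 passed it in MEC or LEC.

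The up-regulated pre-mirs were few. Mir132 and Mir212 lie side by side on chromosome 10 (62014702 to 62015095, plus strand, rn6) and derive from a transcript induced by neuronal activity. In MEC the median of Mir132 was 0.277 CPM (0 to 1.46) at the younger and 0.824 CPM (0.114 to 1.56) at the older ages, with an LFC of 1.43 (SE 0.44, adjusted p = 0.00468, edgeR). In LEC its medians were 0.242 and 1.62 CPM, with an LFC of 2.48 (SE 0.29, adjusted p = 5.57e-09, edgeR). The older libraries overlapped the younger ones in both regions. Mir212 had an LFC of 1.83 (SE 0.29) in MEC and 2.28 (SE 0.33) in LEC.

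Mir22 had a higher median at each later age. In MEC its medians at the successive ages were 2.79, 6.14, 7.43 and 9.07 CPM, and in LEC 2.3, 5.25, 6.73 and 7.69 CPM. The LFC between younger and older ages was 0.99 (SE 0.13) in MEC and 0.94 (SE 0.12) in LEC. Mir29a, which targets transcripts of collagens and DNA methyltransferases, rose with an LFC of 1.61 (SE 0.53) in MEC and 2.05 (SE 0.45) in LEC from a younger median of 0.0468 and 0.127 CPM, about the worth of 1 count or less. Its call in MEC was lost without P45 replicate 2. Mir3102 had 1.42 (SE 0.12) and 0.91 (SE 0.13).

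Mir219-2, whose product drives oligodendrocyte maturation, was at 0 in 12 of 18 younger libraries in each region. At P23 it reached 0.539 to 1.63 CPM in MEC and 0.321 to 0.71 CPM in LEC. At P45 it had 0.151 to 1.5 CPM in MEC and 0 to 0.881 CPM in LEC. The step from P23 to P45 in LEC was downward and not past the threshold (adjusted p = 0.147, edgeR). The additive fit gave an LFC of 3.29 (adjusted p = 1.17e-08, edgeR) in MEC and 2.35 (adjusted p = 6.00e-05, edgeR) in LEC, and the fit with a mean for each group lost the LEC call without P45 replicate 2. All 6 oligodendrocyte markers rose with age in each region, and their part in the difference was not tested. Mir3546 behaved alike in counts, at 0 in the median younger library of both regions, with LFCs of 2.94 and 3.00 from the additive fit. Both pre-mirs can have passed the count limit through the older libraries, where they are high, so their LFCs are not independent of the selection.

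**Figure D2:**
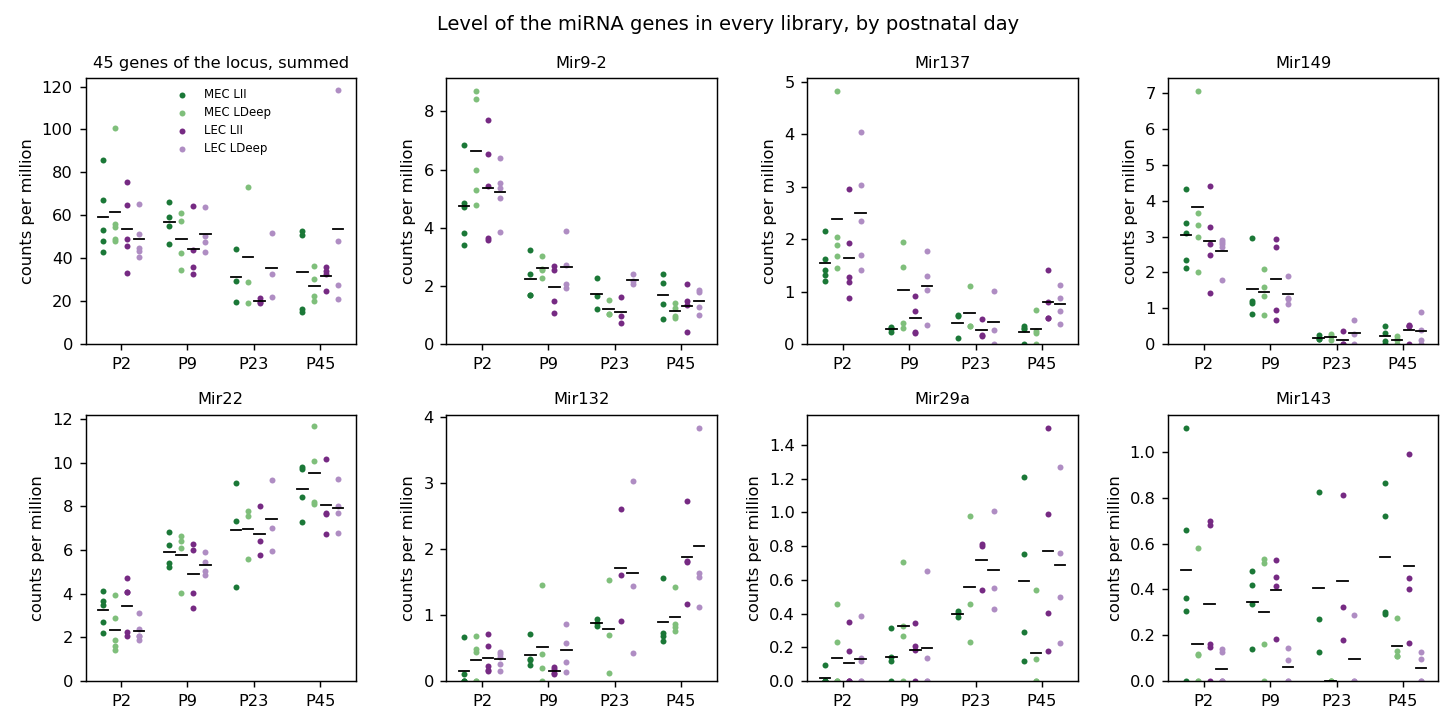
CPM of 7 pre-mirs and of the summed chromosome 6 locus in each of the 64 libraries, by postnatal day, with the mean of each group as a black bar. The means of Mir149 and Mir9-2 are lower and those of Mir22 higher at P23 and P45 than at P2 in all 4 combinations of region and layer, and 1 LEC LDeep library of P45 holds 118.6 CPM of the locus.

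The steps between ages showed when the pre-mirs moved. From P2 to P9, 24 fell and 3 rose in MEC, beside 24.5% and 24.3% of all genes, and 30 fell and 3 rose in LEC, beside 24.7% and 22.6%. From P9 to P23, 21 fell and 7 rose in MEC, beside 24.3% and 24.1%, and 25 fell and 8 rose in LEC, beside 27.4% and 24.3%. From P23 to P45 edgeR called 0 pre-mirs in MEC, where 8 had an unadjusted p under 0.05 and 0.543% of all genes were called. In LEC it called 0, with 19 under an unadjusted 0.05 and 1.8% of all genes called. Mir22 and Mir2985 rose from P2 to P9 in both regions, while Mir212, Mir219-2 and Mir3102 rose in both from P9 to P23. The last step was run with edgeR only.

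The chromosome 6 locus (133682965 to 133898905, plus strand, rn6) held 45 of the pre-mirs, in clusters of 8, 3 and 34 separated by more than 10 kb. It is the imprinted domain that holds Meg3, in which the maternal copy is transcribed into long RNAs that carry these hairpins. Of the 45, 27 were down-regulated at the older ages in MEC and 18 in LEC, 15 of them in both, and none was up-regulated. The calls were 60% of the locus in MEC, beside 36.5% of all genes, and 40% in LEC, beside 37.9%, a share near that of all genes. The LFC was negative for 44 in MEC and 43 in LEC, with a median of -0.81 and -0.61. For the 112 other pre-mirs the medians were -0.54 and -0.50. Members of the locus share transcripts and are not independent of each other.

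The summed level of the locus was 34.4 to 101 CPM (median 54.8) in younger and 15.1 to 73.1 CPM (median 29.2) in older MEC libraries. In LEC it was 32.6 to 75.4 CPM (median 46.7) and 19.0 to 118.6 CPM (median 30.1). The groups overlapped in both regions. In MEC the medians of the successive ages were 53.7, 56.4, 29.2 and 26.4 CPM, so the lower level was found from P23 on. In LEC they were 47.4, 45.9, 21.7 and 33.3 CPM.

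Among the members of the locus that passed in both regions, Mir127 and Mir433 held the most counts. Mir433 had medians of 3.02 and 1.04 CPM in MEC, an LFC of -1.37 (SE 0.22), and of -1.17 (SE 0.26) in LEC. Mir127 had -1.07 (SE 0.29) and -1.09 (SE 0.17). Mir134, which acts at dendritic spines, had -1.11 (SE 0.28) and -0.88 (SE 0.25), and its neighbour Mir382 had -1.09 and -0.94. The pair with the seed AGGUCAC, Mir370 and Mir1193, fell in both regions. Mir770, with the most counts and nearest the start of the locus, was not past the threshold, with an LFC of -0.54 (adjusted p = 0.0663, edgeR) in MEC and -0.25 (adjusted p = 0.397, edgeR) in LEC.

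LEC LDeep of P45 replicate 4 held 118.6 CPM of the locus, beside 21.2, 27.4 and 48.2 CPM in the other libraries of its group, and without that replicate number 23 members of the locus were down-regulated in LEC. Leaving out P23 replicate 3 gave 19 in MEC, and leaving out P2 replicate 3 gave 12 in LEC, where filterByExpr, which kept 23 members of the locus, gave 11. The level of the long nuclear RNA Miat, a gene chosen after its values were seen, was high in the same libraries. It was 1059 CPM in LEC LDeep of P45 replicate 4 and 286 to 503 CPM in the others of that group, and in MEC LDeep of P23 it was 784 CPM in the library with 73.1 CPM of the locus and 430 and 316 CPM in those with 29.2 and 19.2 CPM. The part of nuclear RNA content in the locus values was not tested.

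**Figure D3:**
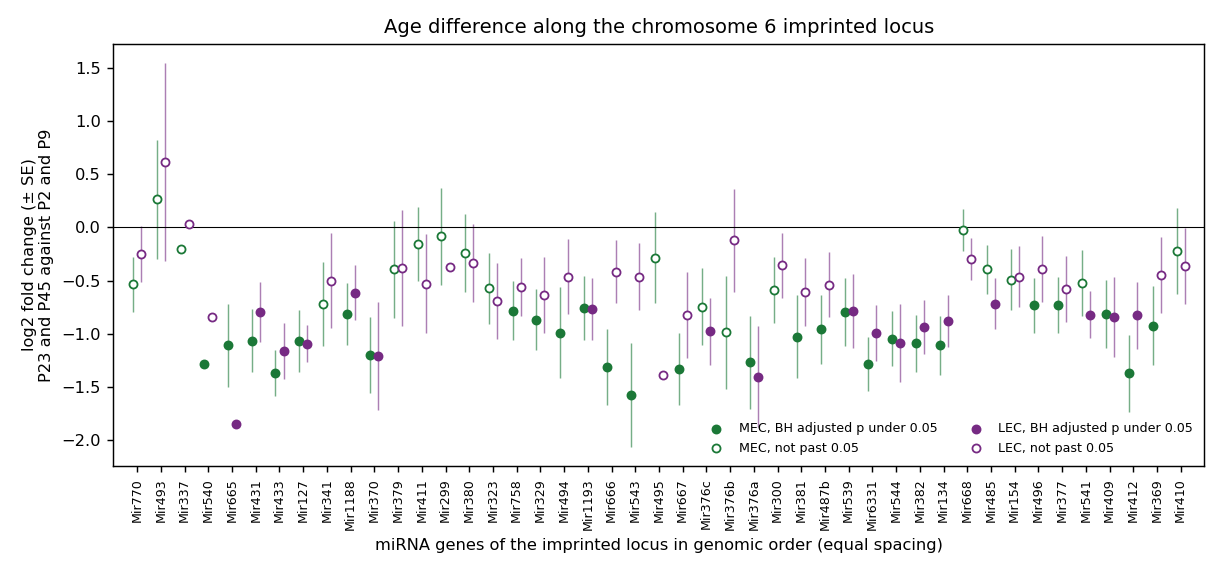
LFC between P23 and P45 and P2 and P9 for the 45 pre-mirs of the chromosome 6 locus in genomic order, at equal spacing; bars are SE (none where a group was at 0) and filled points passed an adjusted p of 0.05. In MEC 27 and in LEC 18 points are filled, all of them below 0.

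The second question was whether the MEC pattern repeated in LEC. The regions share no library. Of the pre-mirs up-regulated at the older ages, 10 were called in both, 76.9% of the MEC list and 76.9% of the LEC list. These were Mir132, Mir212, Mir22, Mir29a, Mir219-2, Mir3102, Mir3546, Mir3577, Mir1843b and Mir2985. Of those down-regulated, 52 were called in both, 71.2% of the MEC and 81.25% of the LEC list, and all 73 MEC calls had a negative LFC in LEC. Over all genes the shares were 86.2% and 87.1% of the lists that rose and 88.6% and 85.4% of those that fell. Across the 157 pre-mirs the age LFC of MEC and LEC had a Pearson's r of 0.85 and a Spearman's rho of 0.77, a description over genes, many of which share transcripts or reads.

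Differences between the regions in the age effect were tested directly. The interaction of region and age was called for 2 pre-mirs, beside 4.15% of all genes. Mir678, in an exon of the arginine methyltransferase gene Prmt2, fell further in MEC, with an LFC of -1.40 (SE 0.13) against -0.74 (SE 0.12) in LEC and an interaction of -0.71 (SE 0.17, adjusted p = 0.00931, edgeR). Its medians in MEC were 8.8 and 3.35 CPM and in LEC 9.06 and 5.05 CPM. Prmt2 itself had LFCs of -1.21 and -0.74 and an interaction of -0.52 (adjusted p = 0.000546, edgeR). Mir2985, in an exon of Gria2, rose less in MEC (0.49, SE 0.08) than in LEC (0.84, SE 0.05), an interaction of -0.39 (SE 0.10, adjusted p = 0.00983, edgeR), whereas the interaction of Gria2 did not pass (-0.22, adjusted p = 0.346, edgeR). Each of the 2 interactions lost its call when 1 replicate number was left out, P23 replicate 3 for Mir678 and P23 replicate 1 for Mir2985. Mir568 was up-regulated with age in MEC (0.68, SE 0.21) and not past the threshold in LEC (0.13, SE 0.26), and it was not among the called interactions.

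Host genes were set beside the pre-mirs they hold. All 21 exonic pre-mirs had the sign of their host's age LFC in MEC and 20 had it in LEC, with a Pearson's r of 0.98 in each region over 21 pairs and a median absolute difference of 0.08 in MEC and 0.09 in LEC. These pairs share read pairs, so the likeness is partly one of counting. For Mir6321 the LFC was -0.67 in MEC and that of Rufy3 was also -0.67. For Mir1306, in an exon of Dgcr8, it was -0.52, and for Dgcr8 it was -0.64.

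Intronic pre-mirs tracked their hosts less closely. Over 29 pairs, 19 had the same sign in each region, Pearson's r was 0.33 in MEC and 0.44 in LEC, and the median absolute difference was 0.42 and 0.60. Where the pre-mir was called, it went with a called host in 8 pairs in MEC and 9 in LEC, and against one in 2 and 4. Mir149 lies within the spans of Ppp1r7, which rose (0.50, SE 0.05, in MEC), and Gpc1, which fell (-0.86, SE 0.06). The next examples were chosen after their values were seen. In LEC Mir1843b rose (0.82, SE 0.23) while its host Rfwd2 fell (-0.29, SE 0.07), and Mir664-2 fell (-1.02) while Rab3gap2 rose (0.52). In MEC Mir3568 fell (-0.88) while Mgrn1, a ubiquitin ligase gene, rose (0.50). The mean level of an intronic pre-mir is low, at a median of 251.5 counts over all libraries.

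The long noncoding gene Lnc215 holds 3 pre-mirs that differed among themselves. Mir125b1 fell sharply, with an LFC of -2.30 (SE 0.36) in MEC and -2.20 (SE 0.43) in LEC. Mir125b2 had 0.04 and 0.03, and Mirlet7a-2 had -0.59 and -0.40, neither past the threshold. The host had -0.60 (SE 0.13) and -0.70 (SE 0.15). Whether the pre-mirs of this host differ from each other was not tested.

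**Figure D4:**
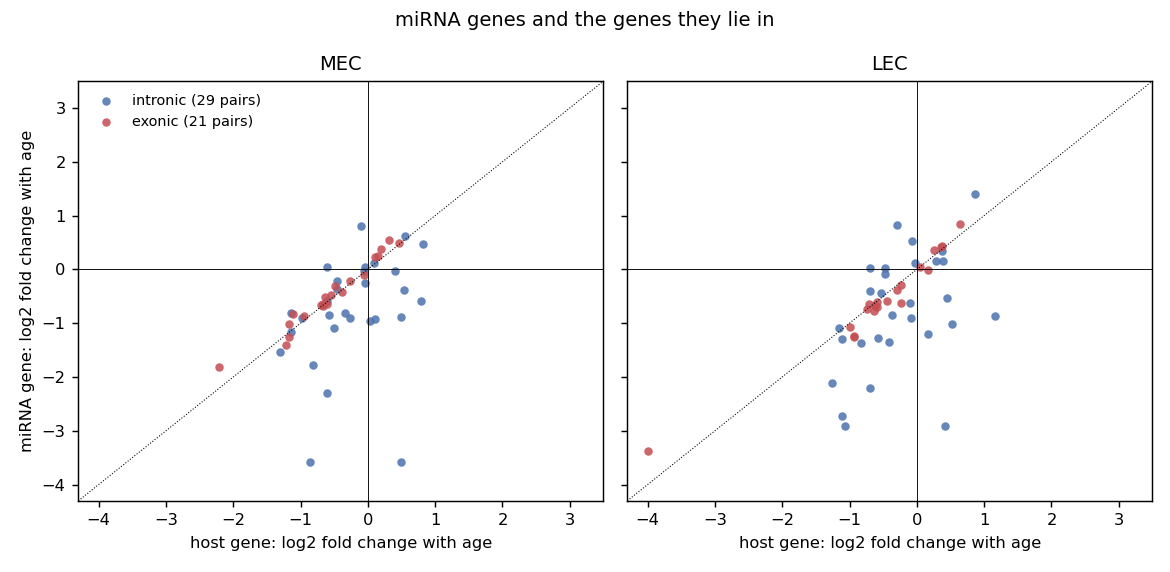
Age LFC of each pre-mir (y axis) and of the gene it lies in (x axis), in MEC and LEC, for 21 exonic and 29 intronic pairs; the dotted line marks equal values. Exonic pairs follow the line, and share reads with their hosts, and intronic pairs scatter around it, with Mir149 lowest.

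The layer comparison asked which pre-mirs differ between LII and LDeep with the ages weighted equally. In MEC 6 pre-mirs were higher in LII, beside 19.1% of all genes, and 4 were higher in LDeep, beside 17.2%. In LEC 2 were higher in LII, beside 17.7%, and 13 were higher in LDeep, beside 18.8%. limma with voom and quantile normalization instead gave 1 and 30 in MEC and 2 and 57 in LEC, so the balance of layers depends on the method. With the replicate number as a block edgeR gave 4 and 4 in MEC and 1 and 12 in LEC, and Mirlet7c-1, Mir9-3 and Mir540 (MEC) and Mir873, Mir219-2 and Mir329 (LEC) lost their calls. Without P2 replicate 1 it gave 7 and 5 in MEC, with Mir124-3 not past the threshold. In LEC the 13 became 5, 6 and 8 without P23 replicate 1, P23 replicate 2 and P9 replicate 3.

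Few MEC layer calls were also called in LEC. The pre-mirs hold few counts, so a call missing in LEC does not by itself show a different pattern. In the fit with a mean for each group Mir143 was the only pre-mir called in both, 16.7% of the MEC and 50% of the LEC list of LII, and no pre-mir of the LDeep lists was shared. Mir675 missed the threshold in LEC in that fit and was called in LII of both regions in the additive fit. Over all genes the shares were 73.5% and 79.3% for LII and 58.8% and 53.7% for LDeep. All 4 of the MEC LDeep pre-mirs and 4 of the 6 LII pre-mirs had the same sign in LEC. Across the 157 pre-mirs r was 0.46 and rho was 0.23. The interaction of region and layer called 0 pre-mirs by edgeR, DESeq2 and limma, with 10 under an unadjusted p of 0.05 and 1.04% of all genes called.

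Mir143, whose miRNA is known from vascular smooth muscle, had 0 to 1.11 CPM (median 0.348) in MEC LII and 0 to 0.58 CPM (median 0.111) in MEC LDeep. In LEC it had 0 to 0.992 CPM (median 0.409) and 0 to 0.288 CPM (median 0), where 9 of 16 LDeep libraries were at 0. The LFC was 2.35 (SE 0.48, adjusted p = 0.000193, edgeR) in LEC, where no group was at 0 throughout. By the additive fit it was 2.37 in LEC (adjusted p = 7.81e-05, edgeR) and 1.42 in MEC (adjusted p = 0.0192, edgeR). All 5 smooth muscle and pericyte markers were higher in LII in both regions, with summed ranges of 77.0 to 530 CPM in MEC LII, 59.1 to 192 in MEC LDeep, 139 to 430 in LEC LII and 68.5 to 138 in LEC LDeep. The LDeep library of P2 replicate 1 held the most Mir143 of the MEC LDeep libraries and the most smooth muscle markers. The LII library of that number also held the most Mir143 of the MEC LII libraries, at 1.11 CPM. Without that replicate number the additive fit gave an LFC of 1.51 in MEC (adjusted p = 0.0107, edgeR). In the study, mature miR-143 was up-regulated in retrogradely labeled stellate neurons of MEC. Its in situ hybridization at P23 showed a dense signal in LII stellate neurons, with staining also in pyramidal cells and some vessels. The study's RNA sequencing gave a higher pre-mir-143 in LII of MEC. It covered the same layers and ages with the same processing as these libraries, so it is not separate evidence. The part of vessels or of neurons in the difference was not tested.

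Mir675, in an exon of the imprinted H19 transcript, had a median of 0.462 CPM (0 to 4.69) in MEC LII and of 0 CPM (0 to 2.61) in MEC LDeep. In the additive fit its LFC was 2.11 (adjusted p = 0.0138, edgeR) in MEC and 2.42 (adjusted p = 6.77e-06, edgeR) in LEC, and H19 had 2.14 (SE 0.57) and 2.58 (SE 0.45). In the fit with a mean for each group Mir675 was not past the threshold in LEC (adjusted p = 0.052, edgeR). In MEC, LDeep of P9 and LDeep of P23 were at 0 throughout. With age it fell, by the additive fit, with an LFC of -2.13 in MEC and -3.65 in LEC. Of the 6 meningeal fibroblast markers 5 were higher in LII in each region. They summed to 14.1 to 607 CPM in MEC LII, 38.9 to 458 in MEC LDeep, 306 to 668 in LEC LII and 16.5 to 224 in LEC LDeep. The highest Mir675 of MEC LDeep was again that of P2 replicate 1, without which the additive fit gave an LFC of 3.36 (adjusted p = 0.000193, edgeR). The part of meninges was not tested.

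Mir568 was the pre-mir with the firmest layer difference in MEC. It had 0.655 to 3.5 CPM (median 1.44) in LII and 0.134 to 1.62 CPM (median 0.71) in LDeep, an LFC of 1.20 (SE 0.21, adjusted p = 6.40e-05, edgeR). At P9 its LII libraries had 0.705, 1.01, 1.26 and 1.33 CPM and its LDeep libraries 0.134, 0.405, 0.411 and 0.486 CPM, and at P23 they had 1.51, 2.2 and 3.5 CPM against 0.572, 0.7 and 0.837 CPM. The layers did not overlap at either age, but they did at P2 and P45. In LEC the medians were 0.907 and 0.845 CPM. It lies on chromosome 11 (61996027 to 61996122, minus strand, rn6) outside annotated genes, and it was called under every alternative and with any replicate number left out.

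The other MEC calls were weaker. Mir337 was higher in LII in the additive fit (1.34, adjusted p = 0.0413, edgeR) and Mir540 in LDeep (-1.39, adjusted p = 0.0254, edgeR), both within the chromosome 6 locus. Mir221, which lay at 0 in 7 of 16 LII libraries and in no LDeep library, had an LFC of -1.32 (SE 0.43), and Mir124-2 had -0.79 (SE 0.27). Mirlet7c-1 (0.82, SE 0.33) and Mir9-3 (0.64, SE 0.24) each lost the call in 10 or more of the 16 fits without a replicate number, and Mir124-3 was not past the threshold in the additive fit (-0.62, adjusted p = 0.234, edgeR).

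**Figure D5:**
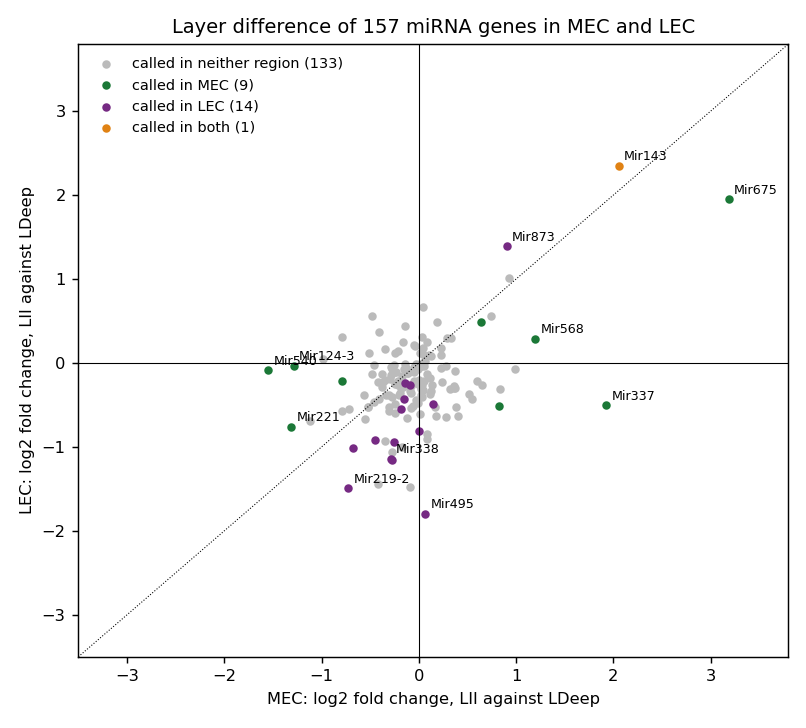
LFC of the 157 pre-mirs between LII and LDeep in MEC (x axis) and LEC (y axis); colors mark where a pre-mir passed an adjusted p of 0.05 and values are from the fit with a mean for each group, where a group at 0 (as for Mir675, Mir337 and Mir495) gives larger values than the additive fit. In this fit Mir143 alone is called in both regions, and 9 are called in MEC and 14 in LEC alone.

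In LEC the calls of LDeep held 4 pre-mirs of the chromosome 6 locus, Mir495, Mir544, Mir329 and Mir496, and the LFC was negative for 41 of its 45 members with a median of -0.38. The 4 are 8.89% of the locus, beside 18.8% of all genes, and they became 0 without P9 replicate 3, P23 replicate 1 or P23 replicate 2, 2 without P45 replicate 4, 0 in the additive fit and 18 with voom. In MEC it was negative for 25 with a median of -0.05. Mir3547 was the LDeep pre-mir with the lowest adjusted p outside exons, at 1.26 to 4.63 CPM (median 2.37) in LDeep and 0.201 to 2.72 CPM (median 1.09) in LII, an LFC of -1.01 (SE 0.24, adjusted p = 0.00103, edgeR). Mir384 had -1.16 (SE 0.35). Of the exonic pre-mirs, Mir2985 (-0.24, SE 0.05), Mir678 (-0.43, SE 0.12) and Mir6321 (-0.26, SE 0.07) went with hosts Gria2 (-0.24), Prmt2 (-0.40) and Rufy3 (-0.32), while Mir3562 passed (-0.48, SE 0.19) and its host Cep131 did not (-0.24, adjusted p = 0.0649, edgeR). Mir873 was higher in LII (1.39, SE 0.51), a call lost in 7 of the 16 fits without a replicate number. Without P45 replicate 4, Mir873 (adjusted p = 0.0632, edgeR), Mir207, Mir329, Mir495, Mir544 and Mir3562 were not past the threshold, while Mir143, Mir219-2, Mir2985, Mir338, Mir384, Mir3547, Mir496, Mir6321 and Mir678 were.

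Pre-mirs tied to oligodendrocytes were also among the LDeep calls. Mir338, in an intron of Aatk, had medians of 0.181 CPM in LEC LII and 0.417 CPM in LEC LDeep, an LFC of -1.14 (SE 0.39, adjusted p = 0.0199, edgeR), and Aatk had -0.34 (SE 0.09). Mir219-2 was called in the fit with a mean for each group but not in the additive fit in LEC (-1.11, adjusted p = 0.0667, edgeR), and the reverse held in MEC (-1.19, adjusted p = 0.016, edgeR). Of the 6 oligodendrocyte markers, 5 were higher in LDeep in MEC and 3 in LEC, with summed ranges of 110 to 4905 CPM in MEC LII, 109 to 16344 in MEC LDeep, 96.4 to 1812 in LEC LII and 131.9 to 7084 in LEC LDeep. Their part was not tested.

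At single ages few pre-mirs passed. In MEC edgeR called 0 at P2 with 5 under an unadjusted 0.05, 4 at P9, 2 at P23 and 1 at P45, beside 4.33%, 11.5%, 12% and 10.9% of all genes. In LEC it called 2, 3, 0 and 3, with 11 under an unadjusted 0.05 at P23, beside 12.5%, 16.3%, 13.1% and 14.3%. These calls were run with edgeR only, and are named here after their values were seen. They were Mir675, Mir337, Mir568 and Mir221 at P9 and Mir568 and Mir2985 at P23 in MEC, and Mir702 at P45. In LEC they were Mir675 and Mir678 at P2, Mir675, Mir2985 and Mir6321 at P9, and Mir2985, Mir6321 and Mir543 at P45. The comparisons at P2 in MEC and at P45 in LEC include the libraries that stood apart by their markers, and are not given without them.

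Between the regions, over all ages and layers, no pre-mir was higher in MEC by edgeR, DESeq2 or limma (1 was in 5 of the 16 fits without a replicate number), beside 8.52% of all genes, and 2 were higher in LEC, beside 6.35%. Altogether 8 had an unadjusted p under 0.05. Mir3547 had 0.269 to 3.93 CPM (median 0.92) in MEC and 0.201 to 4.63 CPM (median 1.66) in LEC, an LFC of -0.81 (SE 0.20, adjusted p = 0.0026, edgeR). Mir678 had medians of 5.39 and 6.72 CPM, an LFC of -0.35 (SE 0.09, adjusted p = 0.00307, edgeR), and Prmt2 had -0.22 (SE 0.05). The libraries of the regions overlapped for both. Mir3547 was thus lower in MEC than in LEC, in LII than in LDeep of LEC, and at the older ages in each region.

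The proteins that make and use miRNAs were read from a list of 28 genes, of which 22 were tested. With age 15 fell (68.2%) and 5 rose (22.7%) in MEC, beside 36.5% and 35.5% of all genes, and 13 fell (59.1%) and 5 rose (22.7%) in LEC, beside 37.9% and 35.1%. Dgcr8, the RNA-binding partner of Drosha, fell with an LFC of -0.64 (SE 0.06) in MEC and -0.59 (SE 0.06) in LEC, and Drosha had -0.30 (adjusted p = 0.0317, edgeR) and -0.13 (adjusted p = 0.378, edgeR). Of the Dicer partners, Prkra fell with an LFC of -1.56 (SE 0.09) in MEC and -1.58 (SE 0.08) in LEC and Tarbp2 with -0.61 and -0.72. Among Argonautes, Ago1 (-0.49 in each region) and Ago4 (-0.55 and -0.78) fell while Ago2 (0.27 and 0.40) and Ago3 (0.90 and 0.91) rose. Zcchc11, which adds uridines to let-7 precursors, fell (-0.81 in each), and the RNA editing enzyme Adarb1 rose (1.09 and 0.82). Between layers, 4 of the 22 were higher in LDeep and 1 in LII in MEC, and 5 were higher in LDeep and none in LII in LEC. The LDeep shares were 18.2% and 22.7%, beside 17.2% and 18.8% of all genes.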

How the data were processed

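The deposited files hold raw read counts per gene for each of 64 rat entorhinal libraries (Ribo-Zero Gold, TruSeq stranded total RNA, paired reads), made by the authors. Per the submitters' processing notes, reads were handled with bcl2fastq 1.8.4, Trimmomatic 0.33, STAR 2.4.0 and featureCounts of Subread 1.4.6-p1 on rn6. Per the file headers, counting was strand-specific, required both ends to map, left out chimeric and multi-mapping pairs, and gave a pair to every gene it overlapped. Pre-mirs with near-identical copies therefore lose reads, and precursors inside exons take those of the host.

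From the counts, genes summing to at least 100 over all samples were tested in edgeR 4.0.16 (TMM, quasi-likelihood F test, BH threshold 0.05), with a mean for each age, layer and, where both regions enter, region. Within a region only its 32 libraries entered the fit. Contrasts weighted groups equally. Alternatives were RLE size factors, filterByExpr, no filter, DESeq2 1.42.0, limma 3.58.1 with voom, the replicate number as a block, all libraries in 1 fit, leaving out each replicate number and, added after seeing the data, an additive fit, for layers also without the replicate numbers in doubt. Scripts were tested on simulated data. The span of a host gene holds the whole precursor on the same strand, with overlap of a host exon recorded apart, and a cluster joins pre-mirs within 10 kb. CPM values use the TMM-scaled totals. RefSeq gave sequences. No reference genome was used, and no GRCr8 coordinate is given.

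No 2 libraries of a group agreed within sampling noise: over 100 pairs the lowest chi-square per degree of freedom was 3.08. At 3894334 to 11439143 counts per library, low pre-mirs rest on a few read pairs each. The members and lists were chosen with earlier results of these data known. Named genes were, per comparison, the 10 largest LFCs in each direction among the called, the 10 highest medians, families the study names or that are known in brain, every called interaction, a list of 28 pathway genes and the hosts; others are said to be chosen after their values were seen.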

Additional observations from a re-analysis of the deposited data

Results flagged for a closer look

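The age difference of Mir678 differed between MEC and LEC by -0.7092 on the log2 scale and that of Mir2985 by -0.387797, both by the test of the interaction. Single libraries were set against the others of their group of 4 or 5 for 14 quantities in 166 groups. Of these groups, 16 held a library far from the rest, where chance gives about 1 in 20. That rate was not checked for sparse pre-mirs, where a single count can set a library apart. Groups of 3, at P23, were not looked at.

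The summed level of the chromosome 6 locus was 100.6 CPM in MEC LDeep of P2 replicate 4 and 48.0 to 56.0 CPM in the other 4 libraries. The sum of the pre-mirs outside the locus was 282.15 CPM in LEC LDeep of P9 replicate 2 (others 309 to 313) and 234.5 CPM in LEC LII of P45 replicate 1 (others 275 to 279). Mir132 had 0.66 CPM in MEC LII of P2 replicate 5 (others 0 to 0.101), 1.56 CPM in MEC LII of P45 replicate 1 (0.603 to 0.72) and 1.43 CPM in MEC LDeep of P45 replicate 3 (0.757 to 0.858). Mir212 had 0.604 CPM in MEC LII of P2 replicate 1 (0.153 to 0.189) and 2.48 CPM in LEC LDeep of P45 replicate 4 (0.876 to 1.14), the library with the highest locus level of its group. Mir124-3 had 0.66 CPM in MEC LII of P2 replicate 5 (0.18 to 0.307). Mir149 had 1.79 CPM in LEC LDeep of P2 replicate 2 (2.7 to 2.89) and 0 CPM in LEC LII of P45 replicate 2 (0.496 to 0.539).

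Mir143 had 0.58 CPM and Mir675 had 2.61 CPM in MEC LDeep of P2 replicate 1 (others at most 0.12 and 0.253), the library whose layer markers went against its label. Mir143 had 0.274 CPM in MEC LDeep of P45 replicate 4 (0.107 to 0.13). Mir675 had 0.619 CPM in LEC LDeep of P2 replicate 5 (0.111 to 0.257) and 0.167 CPM in LEC LII of P45 replicate 3 (others at 0). The latter value is about the worth of 1 count in that library, 0.178 CPM before TMM scaling.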

How the results depend on the processing

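The age counts stayed within 1.5 times under every alternative. Those that left out no replicate gave 10 to 14 pre-mirs up-regulated in each region and 53 to 84 (MEC) and 43 to 70 (LEC) down-regulated. The layer counts did not. voom gave 1 pre-mir of LII and 30 of LDeep in MEC and 57 of LDeep in LEC, edgeR's filterByExpr gave 1 of LDeep in MEC and 0 of LII and 8 of LDeep in LEC (it left 100 and 86 pre-mirs, and so fewer to call), DESeq2 gave 2 of LDeep in MEC, and the additive fit gave 8 of LDeep in LEC. For the others the cause was not tested. Single-age layer and consecutive-age calls were recomputed only in the fit of all 64 libraries (15 and 120, of which 9 and 114 were shared with the 15 and 121 reported) and with replicates left out.

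Leaving out each replicate number gave 12 to 14 up-regulated and 60 to 79 down-regulated pre-mirs with age in MEC and 11 to 14 and 54 to 71 in LEC. For layers it gave 3 to 9 (LII) and 2 to 8 (LDeep) in MEC and 1 to 4 and 5 to 16 in LEC. MEC LII fell to 3 without P23 replicate 2 or P45 replicate 3. MEC LDeep was 2 without P9 replicate 4, P23 replicate 1 or P45 replicate 2 and 8 without P45 replicate 4. LEC LII was 1 without P2 replicate 1, P9 replicate 1 or P45 replicate 3 and 4 without P9 replicate 4. Between regions it gave 0 to 1 higher in MEC and 2 to 3 in LEC, 0 to 0 interactions with layer and 1 to 2 with age, 8 to 18 single-age layer calls (8 without P9 replicate 1, P9 replicate 2 or P23 replicate 2, and 9 without P9 replicate 3, P23 replicate 3 or P45 replicate 3) and 95 to 135 consecutive-age calls. Over the named pre-mirs, 939 values without a replicate number kept their call, 117 lost it and none changed sign. Mirlet7c-1 in MEC and Mir544 and Mir3562 in LEC lost their layer call most often, in 11 of 16.

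With the replicate number as a block, limma with voom gave 14 and 73 with age in MEC and 12 and 64 in LEC. Between layers, edgeR with the block gave 4 and 4 in MEC and 1 (LII) and 12 in LEC. The age counts thus differ from the main ones in the tool as well as the block. Samples of the same number correlated by 0.108 to 0.159 on average in their deviations from group means and samples of different numbers by -0.051 to -0.033. Same-number pairs reached down to -0.245 and different-number pairs to -0.55. These values do not settle whether equal numbers mark the same rat. The main fits used no pairing, and if the numbers do mark rats they treat libraries of 1 rat as independent. Beyond the layer calls named above, the limma fit with the block ended the age call of Mir665 in LEC.

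The depth limits low pre-mirs, since 103 of 157 lie under 1 CPM and 1 count is worth up to 0.257 CPM.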
